A study of Saccharomyces cerevisiae with 12 samples.

Results

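The genes described here encode the yeast proteasome and the factors that bring ubiquitinated proteins to it. They are 44 of the 5444 genes measured, and were taken by gene symbol: 32 subunits of the proteasome, the transcription factor gene RPN4, the maturation factor UMP1, the alternative activator BLM10, and 9 genes of ubiquitin supply, Cdc48 and shuttling (UBI4, UBA1, UBC4, UBC5, CDC48, UFD1, NPL4, RAD23 and DSK2). All 44 were found, each with 1 probe set. The transcriptome was profiled on 12 Affymetrix Yeast Genome 2.0 arrays, from Saccharomyces cerevisiae VTT C-10883, grown in anaerobic batch bioreactors, with 3 arrays in each of 4 conditions. The glucose pulse and the xylose pulse were sampled 1 hour after 3.9 g/L HMF (hydroxymethylfurfural) and 1.2 g/L furfural, inhibitors found in lignocellulosic hydrolysates, had been added while glucose or while xylose was being consumed. The glucose control and the xylose control had received no pulse. All conditions shared the strain, a xylose-utilizing CEN.PK derivative that carries integrated Scheffersomyces stipitis XYL1 and XYL2, overexpressed XKS1 and a restored URA3. The study's text describes its reference samples both as drawn before the pulse and as cultivations without a pulse. If they were drawn before it, the pulse and 1 hour of cultivation cannot be told apart.

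The proteasome is the protease that breaks down most short-lived and damaged proteins in the cytosol and nucleus. Its core particle is a barrel of alpha and beta rings with the active sites inside, and the regulatory particle caps it, with a base of ATPases that unfold substrates and a lid that removes ubiquitin. Substrates are marked through an activating enzyme (E1), conjugating enzymes (E2) and ligases (E3), pulled out of complexes or membranes by the ATPase Cdc48 with its cofactors Ufd1 and Npl4, and carried to the proteasome by shuttle receptors. In S. cerevisiae the subunit genes are activated together by Rpn4, which is itself a rapidly degraded substrate of the proteasome.

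Values are log2 expression, so that a difference of 1 is a doubling. The 12 array medians lay between 9.683 and 9.741, and replicates of a condition correlated at an r of 0.9917 to 0.9979 over all probe sets. Since the arrays had been scaled to each other, a value is a level relative to the other transcripts, and a change in total mRNA per cell cannot be told apart from it. The labelled phases showed in the control arrays: in the xylose control, the glucose-induced transporter genes HXT1 and HXT3 differed from the glucose control by -6.97 and -3.04, and the glucose-repressed genes HXK1, SUC2, FBP1 and PCK1 by 2.27, 1.51, 5.0 and 2.49. ICL1 differed by 0.53 and ADH2, with -0.30, did not pass the test. Some of these markers also moved with the pulse. HXT3 read 12.82, 12.89 and 12.94 on the xylose pulse arrays, against 9.63, 10.13 and 9.94 on the xylose control arrays, a change of 2.98 that brought it near the glucose control mean of 12.94, while HXT1 (0.10) did not pass the test. On glucose, PCK1 (1.40) and HXK1 (1.11) were called higher after the pulse. SUC2 (-0.89) and HXT1 (-0.74) were lower there, without being called. On xylose PCK1 averaged 7.46 in the pulse and 8.35 in the control, and FBP1 8.69 and 7.73. The glucose-repressed markers thus did not all move in 1 direction. The part of such shifts in the changes of the 44 genes was not tested. A gene was called when its log2 fold change passed 1 or -1 and its Benjamini-Hochberg adjusted p (FDR) from limma, over the 5489 probe sets tested, was below 0.01. The p-values rest on the spread between 3 arrays per condition.

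All 44 genes were higher after pulsing in the glucose consumption phase. Each passed the FDR threshold as higher in the glucose pulse than in the glucose control, where 30.6% of all probe sets did, and 20 also passed the fold threshold, where 11.6% of all probe sets did. In all 44 the 3 pulse arrays lay above the 3 control arrays, which was so for 37.3% of probe sets. The median log2 fold change of the 44 was 0.93, against 0.03 over all probe sets, and single genes lay between 0.51 for RPT1 and 2.42 for UBC5. The middle of the set was narrow, with quartiles of 0.75 and 1.09. None was called lower by limma, where 9.55% of all probe sets were, and 0 were lower at an unadjusted p under 0.05, where 33.6% of all probe sets were.

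In the xylose consumption phase the same addition gave 0 called genes in either direction by limma, where 11.8% of probe sets were called higher and 8.38% lower. At an unadjusted p under 0.05, 4 genes were higher (32.9% of all probe sets) and 9 lower (39.6% of all probe sets). With the FDR threshold alone, 2 genes were higher in the xylose pulse than in the xylose control (27.9% of all probe sets) and 4 were lower (32.9% of all probe sets). The median log2 fold change was -0.08, the same as that of all probe sets. The 95% confidence interval of the change lay wholly between -1 and 1 for all 44 genes, and wholly between -0.5 and 0.5 for 37 of them, so that a doubling was outside the interval of every gene in this phase.

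**Figure D1:**
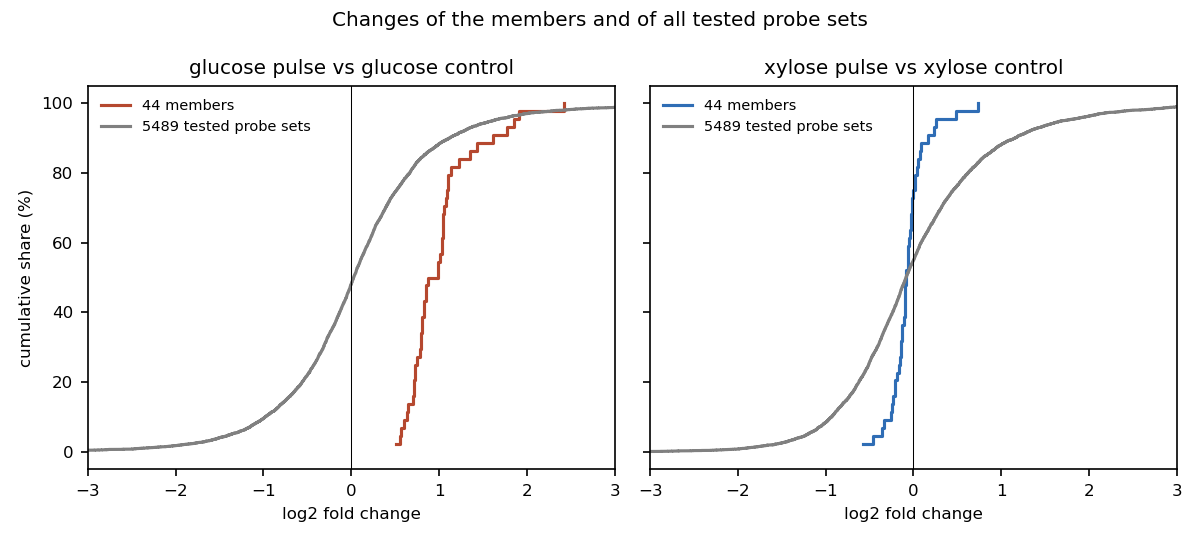
Cumulative share (%) of the 44 genes (coloured steps) and of the 5489 tested probe sets (grey) at or below each log2 fold change, for the glucose pulse against the glucose control (left) and the xylose pulse against the xylose control (right), with the axis drawn from -3 to 3. The 44 genes lie between 0.51 and 2.42 in the glucose consumption phase and between -0.57 and 0.74 in the xylose consumption phase, where their median equals that of all probe sets.

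The response differed between the phases for every gene. As a contrast of its own, the xylose response minus the glucose response was below 0 and past the FDR threshold for all 44, where it was for 35.1% of all probe sets, and 20 also passed the fold threshold, where 19.9% of all probe sets did. The median difference was -0.95, against -0.13 over all probe sets, and it ran from -2.99 for UBC5 to -0.43 for RPT1 and UBC4. Of the 20 genes called in this contrast, PRE3 had a difference of -1.05 and PRE8 of -1.03, and neither was called without glucose control replicate 1 or without xylose pulse replicate 1. PRE8 was likewise not called without glucose pulse replicate 2 or 3. RPN3, with -1.06, was not called without glucose pulse replicate 1, xylose control replicate 1 or xylose pulse replicate 3, nor was RPN8, with -1.07, without the first or the last of these arrays.

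The arrays can also be read by the level of the whole set. The median over the 44 genes was 13.16, 13.13 and 13.13 on the glucose pulse arrays, against 12.23, 12.17 and 12.21 on the glucose control arrays. It was 12.51, 12.51 and 12.54 on the xylose pulse arrays, against 12.59, 12.64 and 12.64 on the xylose control arrays. The glucose pulse arrays thus stood above all others and the glucose control arrays below all others, with the xylose phase between them and closer to the glucose control. By condition mean, 42 of the 44 genes were highest in the glucose pulse, the exceptions being RPN4 (highest in the xylose pulse) and UBC5 (highest in the xylose control). The glucose control was lowest for 33 genes, the xylose pulse for 7 and the xylose control for 4. Most of these values are near the bright end of the arrays, whose highest probe sets lay between 14.21 and 14.45, and whether the scale compresses changes there was not tested.

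**Figure D2:**
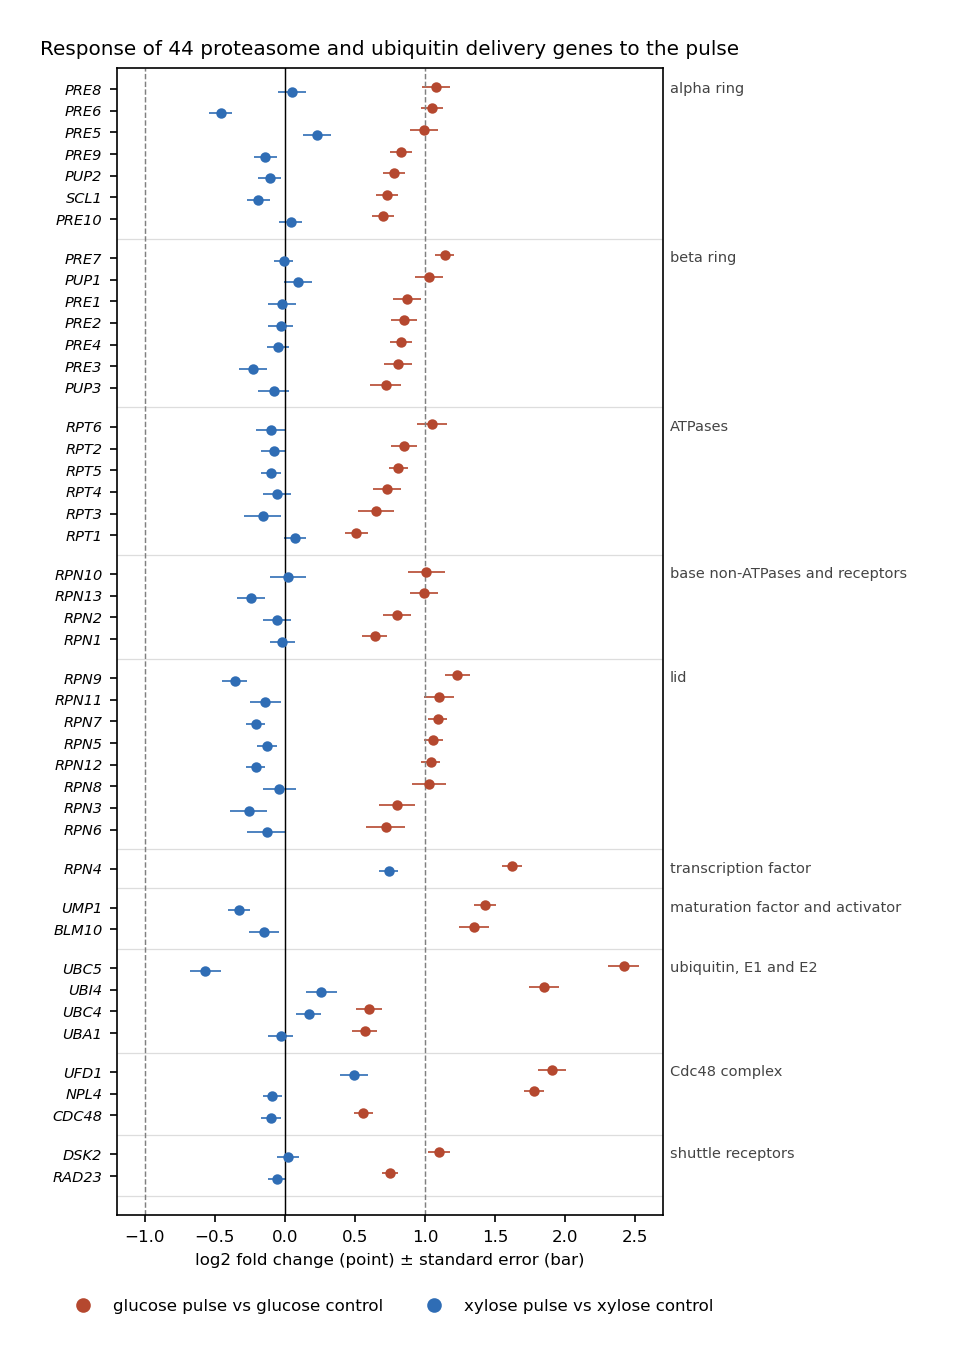
Log2 fold change (points) and its standard error from limma (bars) for each of the 44 genes, in the glucose consumption phase (red, pulse against control) and in the xylose consumption phase (blue, pulse against control), grouped by role, with dashed lines at the fold threshold of -1 and 1. All red points lie to the right of 0, from 0.51 for RPT1 to 2.42 for UBC5, and the blue points scatter around 0, with RPN4 at 0.74 as the highest.

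RPN4 (YDL020C) encodes the transcription factor that activates the subunit genes. It read 13.29, 13.32 and 13.28 on the glucose pulse arrays, against 11.70, 11.72 and 11.61 on the glucose control arrays. In the xylose consumption phase it read 13.34, 13.40 and 13.36 on the pulse arrays, against 12.57, 12.63 and 12.70 on the control arrays. The pulse arrays were far above the controls in both phases, with no overlap, and the xylose pulse arrays lay slightly above those of the glucose pulse. The log2 fold change was 1.62, or 3.07-fold, in the glucose consumption phase (standard error 0.07, adjusted p = 6.0e-10 from limma). In the xylose consumption phase it was 0.74 (standard error 0.07, adjusted p = 1.0e-06), below the fold threshold, and the difference between the phases was -0.88 (standard error 0.10, adjusted p = 3.7e-06). RPN4 was thus the only gene of the 44 whose xylose pulse arrays all lay above all of its glucose pulse arrays (39.0% of all probe sets). The reverse, xylose pulse arrays below the glucose pulse arrays, held for 39 of the 44 (43.8% of all probe sets), and the arrays of RPN10, RPT6, UBI4 and UBC5 overlapped.

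The 32 subunit genes moved within a band of less than 1 on the log2 scale in the glucose consumption phase. Their median was 0.85, with RPN9 highest at 1.23 and RPT1 lowest at 0.51. Of the 32, 12 were called higher (37.5%, against 11.6% of all probe sets). The 14 core particle genes had a median of 0.84, with 4 called, and the 18 regulatory particle genes one of 0.92, with 8 called. None of the 32 was called in the xylose consumption phase, where the median was -0.09 and values ran from -0.46 to 0.23. The difference between the phases was called, as lower, for 13 of the 32 subunit genes (40.6%, against 19.9% of all probe sets).

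The alpha ring gates the entrance to the core particle. Its 7 genes had a median of 0.83 in the glucose consumption phase, and PRE8 (1.08) and PRE6 (1.05) were called higher. PRE5 at 0.99 fell just short of the fold threshold and passed it without glucose control replicate 1 (1.06) and without glucose pulse replicate 2 (1.03) or 3 (1.02). The others were PRE9 (0.83), PUP2 (0.78), SCL1 (0.73) and PRE10 (0.70). PRE6 (YOL038W) read 13.61, 13.76 and 13.79 on the glucose pulse arrays, against 12.69, 12.68 and 12.65 on the glucose control arrays. It read 12.48, 12.68 and 12.61 on the xylose pulse arrays, against 12.98, 13.13 and 13.04 on the xylose control arrays. The pulse arrays thus lay wholly above the controls on glucose and wholly below them on xylose. The change on xylose was -0.46 (standard error 0.08, adjusted p = 2.3e-04), and the difference between the phases was -1.51 (standard error 0.11, adjusted p = 9.5e-08).

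The beta ring holds the proteolytic sites, of which PRE2 encodes the chymotrypsin-like, PUP1 the trypsin-like and PRE3 the caspase-like one. The 7 beta genes had a median of 0.85 in the glucose consumption phase, where PRE7 (1.14) and PUP1 (1.03) were called. PUP1 was not called without glucose control replicate 1. The 3 catalytic subunits had values of 0.85 (PRE2), 1.03 (PUP1) and 0.81 (PRE3), and the remaining PRE1, PRE4 and PUP3 had 0.87, 0.83 and 0.72. PRE7 (YBL041W), a structural subunit, read 13.22, 13.32 and 13.26 on the glucose pulse arrays, against 12.11, 12.09 and 12.20 on the glucose control arrays. No beta gene passed the FDR threshold in the xylose consumption phase, where values lay between -0.23 (PRE3) and 0.09 (PUP1).

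The ATPases RPT1 to RPT6 form the unfolding motor of the base and had the lowest median of the subunit groups in the glucose consumption phase, 0.77. RPT6 (1.05) was the only one called, and it was not called without glucose control replicate 1 (0.92). RPT1 (YKL145W) had the smallest change of all 44 genes. It read 13.17, 13.31 and 13.29 on the glucose pulse arrays, against 12.68, 12.76 and 12.80 on the glucose control arrays. These arrays did not overlap either, and the change of 0.51 had a standard error of 0.08 (adjusted p = 8.2e-05). RPT2, RPT3, RPT4 and RPT5 had 0.85, 0.65, 0.73 and 0.81. No ATPase gene passed the FDR threshold on xylose, with values from -0.16 (RPT3) to 0.07 (RPT1).

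The base also holds the scaffolds RPN1 and RPN2 and the ubiquitin receptors RPN10 and RPN13. In the glucose consumption phase the receptors had changes of 1.01 (RPN10) and 0.99 (RPN13) and the scaffolds of 0.64 (RPN1) and 0.80 (RPN2). The receptors stand on either side of the fold threshold, and which of them is called depended on single arrays. RPN10 was not called without glucose control replicate 1 (0.89) or without glucose pulse replicate 2 or 3 (0.96 each), and RPN13 was called without glucose control replicate 1 (1.06) or glucose pulse replicate 2 (1.00). On xylose the 4 genes had values between -0.24 (RPN13) and 0.02 (RPN10), and none passed the FDR threshold.

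The lid genes had the highest median of the subunit groups in the glucose consumption phase, 1.05. Where 11.6% of all probe sets were called higher, 6 of the 8 lid genes were. They were RPN9 (1.23), the deubiquitinase RPN11 (1.10), RPN7 (1.09), RPN5 (1.06), RPN12 (1.04) and RPN8 (1.03), the partner of RPN11. RPN3 (0.80) and RPN6 (0.72) were not called, and RPN8 was not called without glucose pulse replicate 1. RPN9 (YDR427W), a structural lid subunit, read 13.41, 13.25 and 13.18 on the glucose pulse arrays, against 12.15, 12 and 12.01 on the glucose control arrays. It read 12.47, 12.35 and 12.26 on the xylose pulse arrays, against 12.82, 12.69 and 12.64 on the xylose control arrays. The xylose pulse arrays were again below their controls without overlap, and the change of -0.36 (standard error 0.09, adjusted p = 0.00359) passed the FDR threshold. All 8 lid genes had values below 0 on xylose, from -0.36 to -0.04, and RPN9 alone passed. The difference between the phases was called, as lower, for 7 of the 8 (19.9% of all probe sets), with RPN6 (-0.85) as the exception.

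UMP1 (YBR173C) encodes the chaperone that is enclosed in the maturing core particle and becomes its first substrate. It read 13.16, 13.04 and 13.08 on the glucose pulse arrays, against 11.74, 11.59 and 11.65 on the glucose control arrays. It read 11.87, 11.68 and 11.67 on the xylose pulse arrays, against 12.14, 12.06 and 12.03 on the xylose control arrays. The 3 glucose pulse arrays stood alone at the top and the xylose pulse arrays lay below their controls. The changes were 1.43 (standard error 0.08, adjusted p = 6.6e-09) on glucose and -0.33 (standard error 0.08, adjusted p = 0.00256) on xylose, and their difference was -1.77 (adjusted p = 2.2e-08). BLM10 (YFL007W), whose protein caps the core particle in place of the regulatory particle, read 12.07, 11.77 and 11.70 on the glucose pulse arrays, against 10.67, 10.36 and 10.47 on the glucose control arrays. Its change was 1.35 (standard error 0.11, adjusted p = 1.5e-07) on glucose and -0.15 (adjusted p = 0.229) on xylose.

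The 4 genes of ubiquitin supply and conjugation were the least alike. UBI4 (YLL039C), the stress-inducible polyubiquitin gene, read 13.95, 13.80 and 13.82 on the glucose pulse arrays, against 12.14, 11.93 and 11.97 on the glucose control arrays. It read 13.89, 13.68 and 13.54 on the xylose pulse arrays, against 13.61, 13.34 and 13.39 on the xylose control arrays. The glucose control arrays stood apart below all others, while the pulse and control arrays of the xylose consumption phase overlapped. The change was 1.85 (standard error 0.11, adjusted p = 8.1e-09) on glucose and 0.26 (standard error 0.11, adjusted p = 0.0474) on xylose. UBA1 (YKL210W), the gene of the ubiquitin-activating enzyme, had a small change on glucose, 0.57 (standard error 0.09, adjusted p = 8.5e-05), and one of -0.03 on xylose.

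UBC4 and UBC5 encode closely related E2 enzymes that mark abnormal and short-lived proteins, and their values were far apart. UBC5 (YDR059C) read 11.22, 11.39 and 11.40 on the glucose pulse arrays, against 8.89, 9.04 and 8.82 on the glucose control arrays. It read 11.36, 11.52 and 11.70 on the xylose pulse arrays, against 11.96, 12.18 and 12.15 on the xylose control arrays. The glucose control was low, the other conditions were high, and the xylose control was the highest of all. UBC5 had the largest change of the 44 genes on glucose, 5.34-fold or 2.42 on the log2 scale (standard error 0.11, adjusted p = 6.6e-10), and the lowest on xylose, -0.57 (standard error 0.11, adjusted p = 3.4e-04). The difference of -2.99 (standard error 0.15, adjusted p = 2.4e-09) was likewise the largest of the set.

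UBC4 (YBR082C) varied much less. It read 13.52, 13.63 and 13.68 on the glucose pulse arrays, against 12.90, 13.02 and 13.09 on the glucose control arrays. It read 12.99, 13.18 and 13.22 on the xylose pulse arrays, against 12.96, 12.93 and 12.97 on the xylose control arrays. Its change was 0.60 (standard error 0.09, adjusted p = 3.5e-05) on glucose and 0.17 (adjusted p = 0.0854) on xylose, where the arrays of pulse and control did not overlap. Whether the probe sets of these related genes share signal, or that of UBI4 shares signal with the ubiquitin fusion genes, was not tested.

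**Figure D3:**
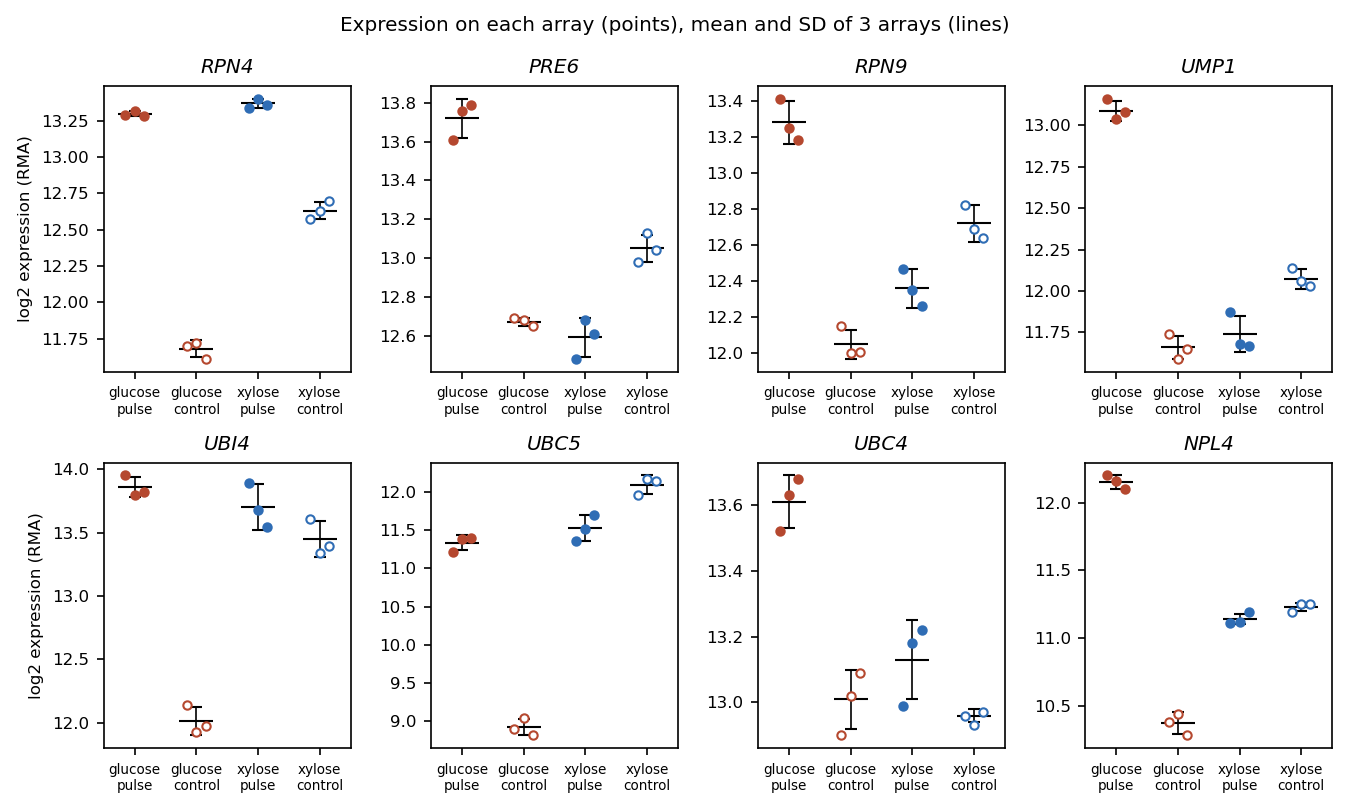
Log2 expression (RMA) of 8 genes on each of the 12 arrays (points, filled for pulse and open for control), with the mean and SD of the 3 arrays of a condition (lines) and a scale of its own for each gene. PRE6, RPN9, UMP1, UBC4 and NPL4 are highest in the glucose pulse, RPN4 is high in both pulses, and UBC5 is low in the glucose control alone.

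Of the Cdc48 complex, the cofactor genes changed more than the ATPase. CDC48 (YDL126C) read 14.00, 13.85 and 13.88 on the glucose pulse arrays, against 13.38, 13.30 and 13.37 on the glucose control arrays, a change of 0.56 (standard error 0.07, adjusted p = 1.9e-05). NPL4 (YBR170C) read 12.20, 12.16 and 12.10 on the glucose pulse arrays, against 10.38, 10.44 and 10.28 on the glucose control arrays. UFD1 (YGR048W) read 11.94, 11.64 and 11.77 on the glucose pulse arrays, against 9.95, 9.82 and 9.85 on the glucose control arrays. Both cofactors were called, NPL4 with 1.78 (standard error 0.07, adjusted p = 3.5e-10) and UFD1 with 1.91 (standard error 0.10, adjusted p = 2.4e-09).

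The cofactors did not behave alike on xylose. UFD1 read 11.36, 11.24 and 11.14 on the xylose pulse arrays, against 10.87, 10.72 and 10.69 on the xylose control arrays, without overlap. This was a change of 0.49 (standard error 0.10, adjusted p = 5.7e-04), and UFD1 and RPN4 were the genes of the 44 that passed the FDR threshold as higher on xylose. NPL4 read 11.11, 11.12 and 11.19 on the xylose pulse arrays, against 11.19, 11.25 and 11.25 on the xylose control arrays, and its change of -0.09 (adjusted p = 0.294) did not pass. CDC48 had -0.10 (adjusted p = 0.238).

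The shuttle receptors RAD23 and DSK2 bind ubiquitin chains at one end and the proteasome at the other. DSK2 (YMR276W) read 13.26, 13.25 and 13.31 on the glucose pulse arrays, against 12.11, 12.15 and 12.27 on the glucose control arrays, and was called with 1.10 (standard error 0.08, adjusted p = 6.3e-08). RAD23 (YEL037C) read 13.02, 13.04 and 13.05 on the glucose pulse arrays, against 12.30, 12.27 and 12.28 on the glucose control arrays, and changed by 0.75 (standard error 0.06, adjusted p = 3.2e-07). In both genes the pulse arrays lay well above the controls. On xylose their changes were 0.02 for DSK2 and -0.06 for RAD23, and neither passed the FDR threshold.

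Across the whole set on xylose, the genes that passed the FDR threshold were RPN4 and UFD1 as higher and PRE6, RPN9, UMP1 and UBC5 as lower. With the replicate number as a block, PRE5 and UBI4 were added to the higher ones, which made 4. RPN9 and UMP1 were not past the threshold without xylose control replicate 1 or without xylose pulse replicate 2 or 3, which left PRE6 and UBC5 as the 2 lower genes. The pulse arrays lay above the controls without overlap for 3 genes (RPN4, UBC4 and UFD1), where 33.0% of all probe sets did, and below them for 14 genes, where 40.6% of all probe sets did. These shares are below the background in both directions. The spread between replicates was similar in all conditions, with a median SD over the 44 genes of 0.08 in the glucose pulse, 0.09 in the glucose control, 0.11 in the xylose pulse and 0.07 in the xylose control.

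Without a pulse, part of the set stood higher in the xylose consumption phase, mostly by less than a doubling. This comparison uses the same glucose control arrays as the glucose response. In the xylose control against the glucose control, 25 of the 44 genes (56.8%) passed the FDR threshold as higher (42.3% of all probe sets). As lower, 2 passed (4.55%, against 39.2% of all probe sets). Only UBC5 and UBI4 were called higher (4.55%, against 27.8% of all probe sets). None was called lower by limma (27.2% of all probe sets), with 2 lower at an unadjusted p under 0.05 (41.8% of all probe sets). The median was 0.36, against 0.09 over all probe sets.

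The genes that differed most between the controls came from several groups. UBC5 averaged 12.10 ± 0.12 in the xylose control and 8.92 ± 0.11 in the glucose control (SD, n = 3 arrays each), a difference of 3.18 (adjusted p = 5.1e-12). UBI4 averaged 13.45 ± 0.14 in the xylose control and 12.01 ± 0.11 in the glucose control (SD, n = 3 arrays each), a difference of 1.44 (adjusted p = 2.2e-08). RPN5 (0.98), RPN4 (0.96), RPT6 (0.91), UFD1 (0.88), NPL4 (0.86) and RPN11 (0.85) came next. By group, the Cdc48 complex had a median of 0.86, the lid one of 0.64 and the beta ring one of 0.14. The lower genes were UBA1 at -0.70 (adjusted p = 5.5e-06) and PRE2 at -0.33 (adjusted p = 0.00349), and PRE2 did not pass without glucose control replicate 1 or without xylose control replicate 2 or 3.

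A wider list of 72 other genes of the ubiquitin and proteasome system was mixed. In the glucose consumption phase 14 were called higher (19.4%, against 11.6% of all probe sets) and 1 lower (1.39%, against 9.55%), with a median of 0.46. With the FDR threshold alone, 44 of the 72 were higher (61.1%, against 30.6%) and 13 lower (18.1%, where 1488 of 5489 probe sets were). In the xylose consumption phase 3 were called higher (4.17%, against 11.8%) and 6 lower (8.33%, against 8.38%), with a median of -0.22. With the FDR threshold alone, 14 were higher (19.4%, against 27.9%) and 30 lower (41.7%, against 32.9%). SEM1, the remaining lid subunit gene, had 0.73 on glucose and -0.15 on xylose, values within the range of the 32 subunits. Among 8 assembly chaperones PBA1 (1.54) and NAS2 (1.24) were called higher on glucose. POC4 (-0.98) and RPN14 passed the FDR threshold as lower there and were not called. On xylose POC4 (1.66) was called higher and RPN14 (-1.39) and IRC25 (-1.21) lower. POC4 averaged 6.55 in the xylose pulse and 4.89 in the xylose control, both below the lower quartiles of the arrays (8.097 to 8.335). The xylose pulse means of RPN14 (7.98) and IRC25 (7.44) were also below these. Of 5 genes of other subunit and associated proteins, SEM1 included, FUB1 (1.44) and the proteasome adaptor ECM29 (1.35) were called higher on glucose.

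DDI1 (YER143W), the remaining shuttle receptor gene, read 12.17, 11.94 and 11.93 on the glucose pulse arrays, against 8.50, 8.54 and 8.96 on the glucose control arrays. On xylose it read 10.43, 10.41 and 10.39 on the pulse arrays, against 10.90, 10.92 and 10.95 on the control arrays. The direction was opposite in the phases, with changes of 3.35 (adjusted p = 7.1e-11) on glucose and -0.51 (adjusted p = 0.00133) on xylose. Of 10 further Cdc48 cofactor genes, 5 were called higher on glucose (11.6% of all probe sets), namely UBX5 (2.23), UBX6 (2.08), UBX4 (1.52), SHP1 (1.22) and DOA1 (1.09). On xylose UBX6 had 2.09 and was called higher (11.8% of all probe sets), and UBX2 (-1.35) and WSS1 (-1.03) were called lower (8.38% of all probe sets). WSS1 was not called without xylose control replicate 3 (-0.87) or xylose pulse replicate 3 (-0.97). Its means of 6.42 in the xylose pulse and 7.45 in the xylose control were below the lower quartiles of the arrays.

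Of 10 other E2 genes UBC8 (1.13) alone was called, on glucose, where 11.6% of all probe sets were called higher. Of 16 E3 and E4 genes the chain-elongating ligase HUL5 (1.92) and the N-degron ligase UBR1 (1.12) were called higher on glucose and UFD2 (-1.01) lower on xylose. UBR1 was not called without glucose pulse replicate 1 (0.99), nor UFD2 without xylose control replicate 1 (-0.97) or xylose pulse replicate 1 (-0.98). Of 19 deubiquitinase genes the proteasome-bound UBP6 (1.35) was called higher on glucose, and on xylose UBP10 (1.36) was higher and UBP7 (-1.12) lower. The xylose pulse mean of UBP7, 7.44, was below the lower quartiles of the arrays (8.097 to 8.335). In each of these lists the counts were near or below the shares of all probe sets. Those were 11.6% called higher on glucose, and 11.8% higher and 8.38% lower on xylose.

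The genes that encode ubiquitin fused to ribosomal proteins moved against UBI4 on glucose. RPL40B had -1.58 (adjusted p = 2.6e-06) and was called lower, and RPL40A (-0.41) and RPS31 (-0.33) passed the FDR threshold as lower. On xylose they had 0.76, 0.09 and 0.24, and RPL40B passed the FDR threshold as higher.

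Regulators known to activate RPN4 were also measured. PDR3 had 2.27 on glucose and 0.69 on xylose, and PDR1 1.01 and 0.85, all past the FDR threshold. PDR3 averaged 6.87 in the glucose control, 7.03 in the xylose control and 7.72 in the xylose pulse. These means were below the lower quartiles of the arrays (8.097 to 8.335). PDR1 was not called on glucose without glucose control replicate 1 (0.95) or glucose pulse replicate 3 (0.97). HSF1 had 1.29 on glucose and -0.02 on xylose, and YAP1 0.92 and 0.20. On xylose RPN4, PDR1 and PDR3 passed the FDR threshold as higher, where 27.9% of all probe sets did. HSF1 and YAP1 did not pass, and none of the 32 subunit genes passed as higher. A link between these values was not tested.

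**Figure D4:**
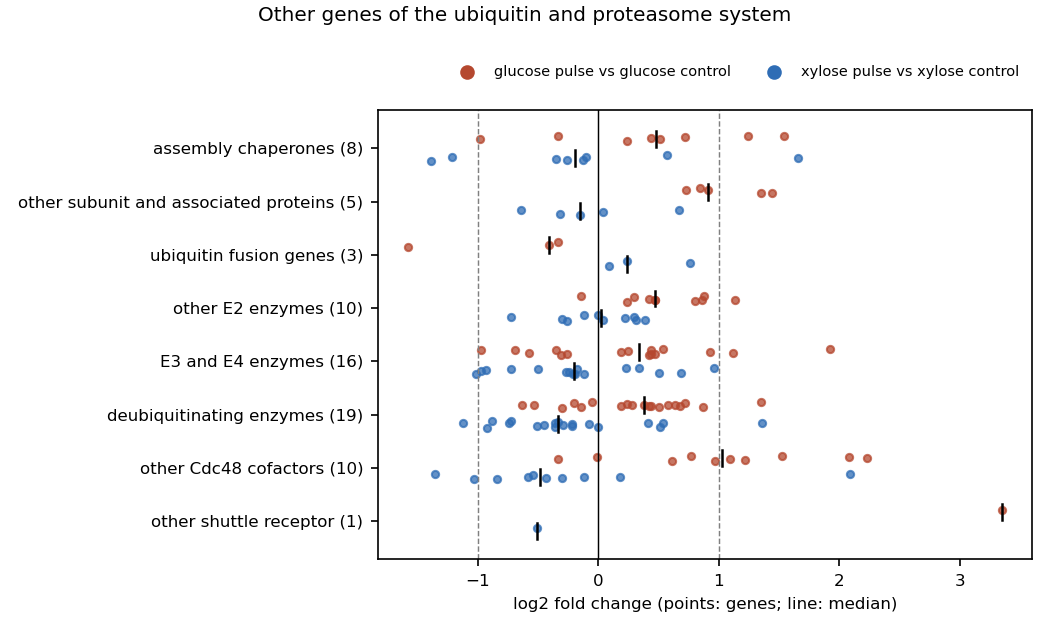
Log2 fold changes of 72 other genes of the ubiquitin and proteasome system by list (points are genes, black lines medians, the number of genes in parentheses), for the glucose pulse against its control (red, upper row of each list) and the xylose pulse against its control (blue, lower row), with dashed lines at -1 and 1. DDI1 at 3.35 is the rightmost point, and the 3 ubiquitin fusion genes lie left of 0 on glucose and right of 0 on xylose.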

How the data were processed

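Total RNA from anaerobic batch cultivations was hybridized to 12 Affymetrix Yeast Genome 2.0 arrays. The authors deposited log2 expression values from RMA (background correction, quantile normalization, median polish). No detection calls were used. Precision is limited by the number of arrays.

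Of 5705 probe sets, 5489 carried 1 gene in the platform annotation of 2016 and were tested, and 216 carried none. The tested probe sets cover 5444 genes (43 of them more than once), and 12 symbols were updated. In limma 3.58.1 under R 4.3.3, each condition received a mean of its own in a fit over all arrays (8 residual and 4.53 prior degrees of freedom), adjusted by Benjamini-Hochberg over all tested probe sets. The fit was also run on simulated data with noise independent between arrays, so deviations shared by arrays of 1 replicate number were not tested. Summaries and plots used pandas 2.3.3, numpy 2.4.6 and matplotlib 3.10.9 under Python 3.11.15. The thresholds are those of the study's methods.

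The deviations of pulse and control arrays of 1 replicate number correlated at 0.474, 0.381 and 0.145 on glucose and at 0.569, 0.299 and 0.305 on xylose, all above 0.1. A fit with the number as a block was therefore run beside the main one, which takes no pairs. The labels do not say that a number marks 1 bioreactor. For the control comparison the values were 0.419, 0.237 and 0.0687. Different numbers also correlated: pulse replicate 3 with control replicate 2 at 0.285 on glucose and 0.328 on xylose. Both are above the 0.145 and 0.305 of pulse and control replicate 3. These values therefore do not settle whether the numbers mark pairs.

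Further alternatives were the arrays of each comparison alone, all probe sets, the dimmest 25% left out, a second quantile normalization, median centring, averaged probe sets per gene, a variance prior that was robust and followed the level, an FDR of 0.05 and the omission of each array in turn. Results with replicates 2 and 3 alone were added after the data had been seen, since replicate 1 correlated least with the others. The 44 genes, the lists and the rule for naming other genes (up to 4 called genes per list and phase with the smallest adjusted p, and all RPN4 activators, ubiquitin fusion genes, DDI1 and phase markers) were chosen with earlier results of these data known. SEM1 and DOA1 were named outside this rule, after their values had been seen. Promoter and protein sequences were not analysed here.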

Additional observations from a re-analysis of the deposited data

Results flagged for a closer look

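The pulse response differed between the consumption phases, by the contrast of the xylose response minus the glucose response in limma (adjusted p under 0.01 and a difference past 1 or -1), for 20 of the 44 genes. In this contrast 19.9% of all probe sets were called lower, and 1043 of 5489 were called higher. All 20 genes had the lower response on xylose. In the lid they were RPN3 (-1.06), RPN5 (-1.19), RPN7 (-1.30), RPN8 (-1.07), RPN9 (-1.58), RPN11 (-1.24) and RPN12 (-1.25), and in the base RPN13 (-1.23) and RPT6 (-1.15). In the core particle they were PRE3 (-1.05), PRE6 (-1.51), PRE7 (-1.14) and PRE8 (-1.03). Outside the subunits they were UMP1 (-1.77), BLM10 (-1.50), UBI4 (-1.59), UBC5 (-2.99), UFD1 (-1.42), NPL4 (-1.87) and DSK2 (-1.08).

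By the same contrast, 22 of the 30 other named genes of the system and of the RPN4 activators differed. Most of the 30 had been named because they were called in a phase, so a high count was favoured in advance. Lower on xylose were the assembly chaperones PBA1 (-1.80), NAS2 (-1.34), RPN14 (-1.06) and IRC25 (-1.46), and FUB1 (-2.08), UBC8 (-1.26), HUL5 (-1.69), UBR1 (-1.31), UFD2 (-1.20), UBP6 (-2.08) and UBP7 (-1.55). So were UBX5 (-3.07), UBX4 (-1.64), SHP1 (-1.65), UBX2 (-1.97), DOA1 (-1.39), DDI1 (-3.86), PDR3 (-1.58) and HSF1 (-1.31). POC4 (2.63), RPL40B (2.34) and UBP10 (1.17) had the higher response on xylose. POC4 had xylose means below the lower quartiles of the arrays, and its change on glucose was -0.98. RPN14 was not called under a second quantile normalization (-0.92) or without xylose pulse replicate 2 (-0.98). Over all 72 other genes of the system, named or not, the contrast called 24 lower (33.3%, against 19.9% of all probe sets). It called 4 of the 72 higher (5.56%), where 1043 of all 5489 probe sets were called higher.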

How the results depend on the processing

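In the comparisons that involve a pulse, no result of the 44 genes changed direction while past a threshold under any alternative run. The same held for the other named genes of the system and the RPN4 activators, where they were called. The direction of single genes was not followed for the control comparison. In the glucose consumption phase 18 to 20 genes were called higher under the alternatives and 19 to 21 with an array left out. The difference between the phases was called for 20 to 24 and 19 to 21 genes, the 24 being under a second quantile normalization, and passed the FDR threshold for 42 to 44 with an array left out. The median change on glucose was 0.99 under a second quantile normalization and 0.90 with replicates 2 and 3 alone, and lay between 0.89 and 0.94 with an array left out. The median difference was -1.02 and -1.0 under the same 2 alternatives. On xylose, the genes past the FDR threshold as higher numbered 4 with the replicate block. Those lower numbered 7 with replicates 2 and 3 alone and between 2 and 6 with an array left out, where the median lay between -0.10 and -0.05. In the xylose control against the glucose control, 1 gene was past the FDR threshold as lower under a second quantile normalization, and between 1 and 2 were with an array left out. The causes were not tested. PDR1, with 1.01 on glucose, had 0.98 under a second quantile normalization. The block changed no other call of the 44 genes past both thresholds in the 4 comparisons. RPN10, RPT6, PUP1, RPN8, PRE5 and RPN13, all near the fold threshold on glucose, changed sides of it with 1 array left out.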
